A study of Mus musculus with 12 samples.

Results

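Transcript levels of 8 genes of cholesterol metabolism were followed in group 2 innate lymphoid cells (ILC2s), lymphocytes without a rearranged antigen receptor that release type 2 cytokines. The genes were chosen by name and comprise Srebf2, which encodes the transcription factor SREBP2, its target and inhibitor Insig1, and the sterol synthesis enzymes Hmgcs1, Idi1, Fdft1, Sqle, Lss and Cyp51. The transcripts annotated to each gene were summed in each of the 12 libraries. The 8 genes are among 29542 genes with a matched transcript, and all 8 passed the filter on low counts that left 14431 genes for testing. Levels are given on 2 scales: TPM, a deposited abundance scaled for transcript length, and CPM, the estimated reads of a gene scaled to library size with TMM factors and not to length.

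Every library came from mixed bone marrow chimeras, in which ILC2s of both donors develop in the same host. Hosts were CD45.1 congenic C57BL6 mice that received 950 cGy and, 6 hours later, equal parts of CD45.2 Rag1-/- marrow and CD90.1 WT marrow. All mice had antibiotic in the drinking water around the transplant and were given IL-33, the cytokine that expands ILC2s, for 7 days at 30 ng into each cheek and 240 ng into the peritoneum. Cells were sorted from the lymph nodes that drain the skin, with gates not given in the sources used here. The 4 groups, of 3 libraries each, were Rag1-/- donor cells at 20 weeks after transplant, WT donor cells at 20 weeks, Rag1-/- donor cells at 8 weeks and WT donor cells at 8 weeks. The description of the series gives 12 weeks for the later time, but each sample is labelled 20 weeks, and that was taken. Age and harvest date are not given, so the effects of time and of a batch tied to time cannot be told apart. Whether the libraries came from separate mice is not labelled, and p-values reflect only how far these libraries spread.

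SREBP2 is held in the endoplasmic reticulum together with its escort SCAP, and INSIG proteins retain the complex there while sterols are abundant. When membrane cholesterol falls, the complex moves to the Golgi, where SREBP2 is cleaved, and the released fragment enters the nucleus and activates genes of sterol synthesis and uptake through sterol regulatory elements. Dividing lymphocytes are known to use this pathway to build membrane, and INSIG1, itself a target of SREBP2, closes the feedback loop.

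Summed estimated reads ranged between 11433625 and 32529806 per library. Rag1, the targeted gene, had an estimated 0 to 18.4 reads in the 6 libraries labelled knockout, where 1 library was at 0, and 0 reads in all 6 libraries labelled WT. That direction goes against the labels, the deleted part of the gene is not stated, and the Rag1-/- libraries are called knockout-labelled throughout. The labelled cell type was checked with 14 ILC2 markers, of which 13 averaged over 1 CPM in every group. Their summed level was 7589 to 8002 CPM in knockout-labelled and 8289 to 8910 CPM in WT cells at 20 weeks, and 6514 to 8239 CPM in knockout-labelled and 5998 to 7929 CPM in WT cells at 8 weeks. Of other cell types, 11 T cell markers summed to 512 to 925 CPM, most of it from the receptor constant genes Trbc1 and Trbc2, 10 B cell and plasma cell markers to 166 to 594 CPM, and 8 NK and ILC1 markers to 38.5 to 321 CPM. Stromal and endothelial markers (10, mostly Pecam1) summed to 111 to 154 CPM, 12 myeloid and dendritic markers to 16.5 to 27.1 CPM, and 8 mast cell, basophil and eosinophil markers to 8.16 to 22.2 CPM. Fcgr1, S100a9, Epx and Lyve1 among them were at 0 in every library. In a bulk sample, fewer cells of a type and less RNA per cell cannot be told apart. A pair of libraries stood apart from the rest. In knockout-labelled replicate 3 at 8 weeks the 10 most abundant genes held 24.5% of the reads, against 8.85% to 15.03% in the other libraries, and WT replicate 2 at 8 weeks, at 15.03%, was also the shallowest library. The main results that rest on them are also given without them.

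The promoters of Srebf2 and Hmgcs1 are shown because they hold strings of the sterol regulatory element, that of Insig1 because Insig1 varied most between libraries, and that of Lss because Lss varied with Srebf2. Sequences are from RefSeq on GRCm38.p6, 5′ to 3′ on the strand of the gene, and each ends before the first annotated transcript start. Capitals mark the sterol regulatory element core CACNCCAC, the related string ATCACNCCA, and the NF-Y box CCAAT, read on both strands, so that ATTGG is the NF-Y box on the other strand. CACNCCAC and ATCACNCCA can share bases, and ATCACNCCA was added after the sequences had been seen.
Srebf2, chr15:82147019-82147180: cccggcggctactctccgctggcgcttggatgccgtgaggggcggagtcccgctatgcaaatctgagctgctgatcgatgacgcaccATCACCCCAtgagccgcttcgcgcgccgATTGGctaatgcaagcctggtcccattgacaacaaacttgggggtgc
Hmgcs1, chr13:119690101-119690350: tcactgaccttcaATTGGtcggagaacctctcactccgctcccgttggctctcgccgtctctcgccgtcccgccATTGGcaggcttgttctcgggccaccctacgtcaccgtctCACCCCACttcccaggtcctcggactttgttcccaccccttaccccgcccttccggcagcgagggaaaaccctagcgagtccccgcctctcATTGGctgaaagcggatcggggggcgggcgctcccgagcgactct
Insig1, chr5:28071162-28071362: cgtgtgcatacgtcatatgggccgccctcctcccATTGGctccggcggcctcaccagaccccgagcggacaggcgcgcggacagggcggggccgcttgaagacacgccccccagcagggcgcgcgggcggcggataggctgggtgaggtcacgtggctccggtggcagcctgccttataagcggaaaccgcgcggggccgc
Lss, chr10:76531355-76531587: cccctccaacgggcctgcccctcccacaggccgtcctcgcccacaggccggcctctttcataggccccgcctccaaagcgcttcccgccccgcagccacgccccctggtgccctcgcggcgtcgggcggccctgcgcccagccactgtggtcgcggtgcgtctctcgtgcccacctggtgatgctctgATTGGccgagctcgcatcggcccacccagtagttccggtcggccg
In Hmgcs1 the core CACCCCAC starts at position -136 relative to the RefSeq start site and lies among 3 NF-Y boxes at -237, -176 and -45. Srebf2 holds ATCACCCCA at -163 and an NF-Y box at -135. Insig1 holds an NF-Y box at -216 and, in lower case, the E-box CACGTG at -101; its core match, on the other strand at -9, falls past the printed stretch. Lss holds an NF-Y box at -62 and no match to either sterol element. Promoters of 6 of the 8 genes were in the table, and the windows of Idi1 and Cyp51 hold NF-Y boxes but neither sterol element string. Windows ran from 250 bases before to 50 bases after a start site. Of 32544 distinct promoter windows, 6.23% held CACNCCAC, 0.830% ATCACNCCA, 37.4% CCAAT and 7.17% CACGTG. A match describes the letters only.

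The 8 genes were expressed at moderate levels in all 12 libraries. Their summed level averaged 183.5 ± 31.7 TPM in knockout-labelled and 184.3 ± 12.4 TPM in WT cells at 20 weeks, and 184.4 ± 47.5 TPM in knockout-labelled and 167 ± 12.9 TPM in WT cells at 8 weeks (SD, n = 3 each). The mean of knockout-labelled cells at 8 weeks rested on 1 library. Replicates 1, 2 and 3 had 158.0, 156.1 and 239.2 TPM, and replicate 3 is a library that stood apart, with 121.4 TPM from Insig1. Ordered by mean TPM over the 12 libraries, Insig1 came first at 40.4 ± 27.7, followed by Cyp51 at 32.4 ± 7.78, Lss at 25.2 ± 5.66, Fdft1 at 21.5 ± 2.47, Idi1 at 21.0 ± 5.05, Sqle at 17.3 ± 3.88 and Hmgcs1 at 14.6 ± 3.13, with Srebf2 last at 7.51 ± 2.06. The ranges of every pair of neighbours in this order overlapped. Insig1 exceeded Cyp51 in only 5 of 12 libraries and Fdft1 exceeded Idi1 in 5 of 12, so those neighbours have no fixed order, whereas Hmgcs1 exceeded Srebf2 in 12 of 12.

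The genes differed in how steady they were between libraries of the same group. On the log2 scale, the SD between libraries of a group was 0.80 for Insig1, larger than in 98.1% of the 1598 tested genes of like level. Idi1 had an SD of 0.58, larger than 92.2% of its 1858 peers. Fdft1 was the steadiest over the 12 libraries, with an SD of 0.18, larger than only 12.4% of its peers. The highest library exceeded the lowest 6.95-fold for Insig1 and 4.08-fold for Idi1, against 1.51-fold for both Fdft1 and Lss. Without both libraries that stood apart, the highest library exceeded the lowest 2.13-fold for Insig1 and 1.92-fold for Idi1. The SD of Insig1 was then 0.34, larger than in 91.1% of 1738 genes of like level and still the largest of the 8, and that of Idi1 was 0.25, larger than in 70.3% of 1851. Fdft1 had 0.15, and Lss, at 0.12, was the steadiest.

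**Figure D1:**
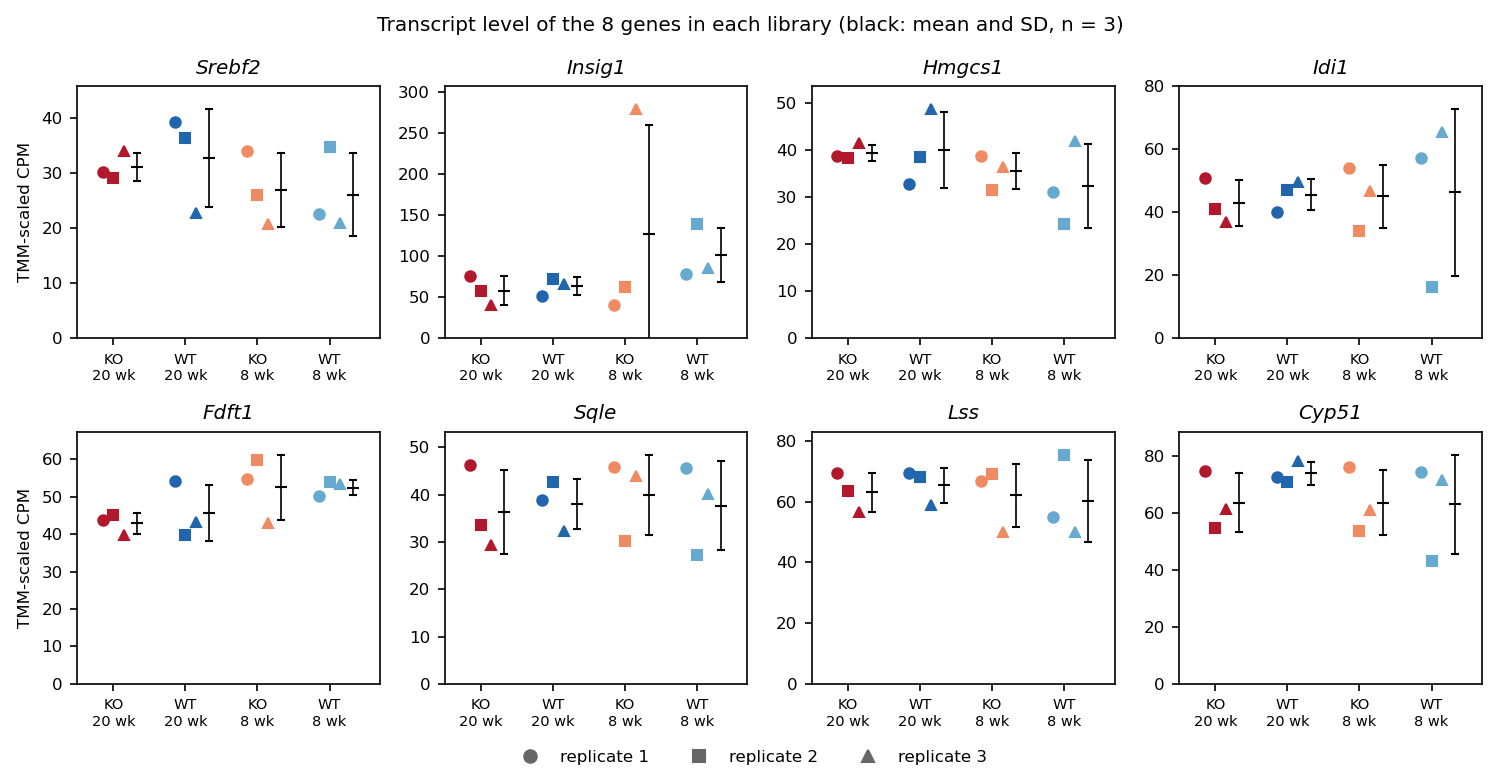
Level of each of the 8 genes (TMM-scaled CPM, linear axes that start at 0) in the 12 libraries, with knockout-labelled (KO) and WT groups at 20 and at 8 weeks. Symbols are replicates and black bars the mean and SD of 3 libraries; Insig1 stands at 279.8 CPM in 1 knockout-labelled library of 8 weeks, and Idi1 at 16.1 CPM in 1 WT library of 8 weeks.

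Srebf2, the regulator (chr15:82147181-82205379 on GRCm38, plus strand), had 30.1, 29.1 and 34.0 CPM in knockout-labelled and 39.3, 36.4 and 22.6 CPM in WT cells at 20 weeks. At 8 weeks it had 34.0, 26.0 and 20.6 CPM in knockout-labelled and 22.6, 34.7 and 20.8 CPM in WT cells. In CPM all 4 groups overlapped, and the highest and the lowest library belonged to different genotypes. In TPM the knockout-labelled groups did not overlap, with 8.88, 8.20 and 9.16 at 20 weeks and 7.81, 6.16 and 4.83 at 8 weeks. The log2 fold change was -0.01 (SE 0.19) for knockout-labelled over WT cells averaged over both times, and 0.27 (SE 0.19, adjusted p = 0.482 by edgeR) for 20 over 8 weeks averaged over both genotypes.

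Insig1, which encodes the protein that retains SCAP in the endoplasmic reticulum (chr5:28071363-28078662, plus strand), had 75.95, 57.1 and 40.3 CPM in knockout-labelled and 51.7, 72.5 and 66.3 CPM in WT cells at 20 weeks. At 8 weeks it had 40.8, 61.8 and 279.8 CPM in knockout-labelled and 78.4, 139.5 and 85.7 CPM in WT cells. The 2 highest of the 12 values were thus those of the libraries that stood apart. In CPM, all 3 WT libraries of 20 weeks lay below all 3 WT libraries of 8 weeks. On that scale Insig1 was the only gene of the 8, and this the only one of the 4 pairs of groups, without overlap. Of all tested genes 9.04% were lower without overlap in that pair in CPM, and 10.3% were higher. In TPM the same WT libraries overlapped, with 26.4, 38.3 and 31.0 at 20 weeks and 35.4, 57.6 and 38.1 at 8 weeks. Averaged over genotypes, Insig1 had a log2 fold change of -0.90 for 20 over 8 weeks (SE 0.40, adjusted p = 0.247 by edgeR), which did not pass. Without knockout-labelled replicate 3 of 8 weeks that value was -0.25 (SE 0.21), and without both libraries it was -0.10 (SE 0.19). The genotype difference at 8 weeks was 0.33 (SE 0.56) with all libraries. It was -0.97 (SE 0.33, adjusted p = 0.823 by edgeR) without that library and -0.67 (SE 0.29) without both. Its sign thus turned without that library, and it changed in 4 of 25 alternatives in all. In that library, Abcg1, which encodes a sterol exporter, was also at its highest, 1991 CPM, and the summed level of 20 cell cycle genes was 9496 CPM, the highest of all. Their part in the Insig1 value was not tested.

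Hmgcs1, HMG-CoA synthase, which makes the precursor of mevalonate in the cytosol (chr13:119690379-119708260, plus strand), had 38.7, 38.4 and 41.5 CPM in knockout-labelled and 32.7, 38.6 and 48.8 CPM in WT cells at 20 weeks. Its values at 8 weeks were 38.8, 31.4 and 36.5 CPM in knockout-labelled and 31.0, 24.2 and 42.0 CPM in WT cells. The knockout-labelled libraries of 20 weeks lay close together inside the range of the WT libraries. In TPM, but not in CPM, they lay above all knockout-labelled libraries of 8 weeks (17.6, 16.7 and 17.3, against 13.8, 11.5 and 13.2). For 20 over 8 weeks averaged over genotypes the log2 fold change was 0.23 (SE 0.16, adjusted p = 0.473 by edgeR), and for genotype averaged over times it was 0.06 (SE 0.16).

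Idi1, which interconverts the isoprenoid units (chr13:8885501-8892451, plus strand), had 51.0, 41.1 and 36.8 CPM in knockout-labelled and 40.1, 47.1 and 49.5 CPM in WT cells at 20 weeks. At 8 weeks the values were 54.1, 34.2 and 46.7 CPM in knockout-labelled and 57.3, 16.1 and 65.6 CPM in WT cells. Both its lowest and its highest value were WT libraries of 8 weeks, the lowest being the shallowest library, with an estimated 163 reads of Idi1. The averaged log2 fold changes were -0.07 (SE 0.27) for genotype and -0.05 (SE 0.27) for time. Its paralog Idi2 had at most an estimated 10.7 reads in a library.

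Fdft1, squalene synthase, the first enzyme committed to sterols (chr14:63145150-63179578, minus strand), had 43.9, 45.1 and 39.7 CPM in knockout-labelled and 54.2, 39.8 and 43.3 CPM in WT cells at 20 weeks. The 8-week libraries had 54.9, 59.8 and 42.9 CPM in knockout-labelled and 50.1, 53.9 and 53.4 CPM in WT cells. Group means were lower at 20 weeks in both genotypes, but 1 library of each genotype crossed. The time difference averaged over genotypes was -0.25 on the log2 scale (SE 0.13, 95% interval -0.52 to 0.03, adjusted p = 0.328 by edgeR), and the genotype difference averaged over times was -0.05 (SE 0.13).

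Sqle, squalene epoxidase (chr15:59315077-59331192, plus strand), had 46.3, 33.5 and 29.4 CPM in knockout-labelled and 38.9, 42.7 and 32.2 CPM in WT cells at 20 weeks. The 8-week values were 45.7, 30.3 and 43.9 CPM in knockout-labelled and 45.6, 27.3 and 40.1 CPM in WT cells. All 4 groups overlapped, and the lowest value was again that of the shallowest library. Averaged log2 fold changes were 0.01 (SE 0.18) for genotype and -0.06 (SE 0.18) for time.

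Lss, lanosterol synthase, which closes the sterol rings (chr10:76531588-76557138, plus strand), had 69.3, 63.6 and 56.5 CPM in knockout-labelled and 69.4, 68.2 and 58.9 CPM in WT cells at 20 weeks. Its 8-week values were 67.01, 69.1 and 50.2 CPM in knockout-labelled and 55.0, 75.5 and 50.1 CPM in WT cells. Here the shallowest library, which was the lowest of the 12 for Cyp51, Idi1, Sqle and Hmgcs1, was the highest in CPM. In TPM it was not, with 20.7 in a range of 17.3 to 34.0. In TPM the WT groups did not overlap either, with 34.0, 25.8 and 23.1 at 20 weeks and 21.5, 20.7 and 17.3 at 8 weeks. Differences were small, with averaged log2 fold changes of 0.00 (SE 0.14) for genotype and 0.07 (SE 0.14) for time.

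Cyp51, lanosterol demethylase (chr5:4081145-4104746, minus strand), had 74.7, 54.5 and 61.4 CPM in knockout-labelled and 72.5, 70.7 and 78.3 CPM in WT cells at 20 weeks. In the 8-week libraries it had 75.9, 53.7 and 61.1 CPM in knockout-labelled and 74.3, 43.0 and 71.5 CPM in WT cells. The WT libraries of 20 weeks were tightly grouped in the upper part of the range, with 1 knockout-labelled library of 20 weeks among them. The genotype difference at 20 weeks was -0.22 on the log2 scale (SE 0.23, 95% interval -0.71 to 0.27). The averaged values were -0.10 (SE 0.16) for genotype and 0.11 (SE 0.16) for time.

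The first comparison asked whether ILC2s of the 2 donors differed in these genes. None of the 8 passed the test at either time. At 20 weeks edgeR called 0 of 8 genes, against 0.0554% of all tested genes, and 0 of 8 were under an unadjusted p of 0.05, against 2.08%. All 8 point estimates were negative, between -0.22 and -0.02 on the log2 scale, with a median of -0.08 beside -0.01 over all tested genes. The libraries that stood apart are both of 8 weeks and hold none of the values compared here. Without knockout-labelled replicate 3 of 20 weeks 4 of the 8 were negative, and without replicate 1 or 2 all 8 were. Without WT replicate 1, 2 or 3 of 20 weeks 6, 7 and 7 were negative, and with thread number as covariate 4 were. At 8 weeks 0 of 8 were called, against 0.201%, and 0 of 8 had an unadjusted p under 0.05, against 3.62%. Of the 8 estimates, 7 were positive with all libraries, but 3 without both libraries that stood apart, 4 without WT replicate 2 alone and 2 without knockout-labelled replicate 1 of 8 weeks. Averaged over both times 0 of 8 were called, against 0.222%, and 0 of 8 were under the unadjusted threshold, against 3.71%. These estimates lay between -0.10 and 0.10 on the log2 scale, and between -0.40 (Insig1) and 0.20 without both libraries that stood apart. No gene of the 8 had knockout-labelled and WT groups that did not overlap, at 20 weeks (5.34% of tested genes were higher and 6.08% lower without overlap) or at 8 weeks (2.91% and 2.72%).

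The width of the intervals depended on the gene. Over both times and without Insig1, the 95% intervals of the other 7 genes lay within -0.66 and 0.53 on the log2 scale, which is 0.632-fold to 1.45-fold. The interval of Insig1 was wider, -0.76 to 0.96.

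**Figure D2:**
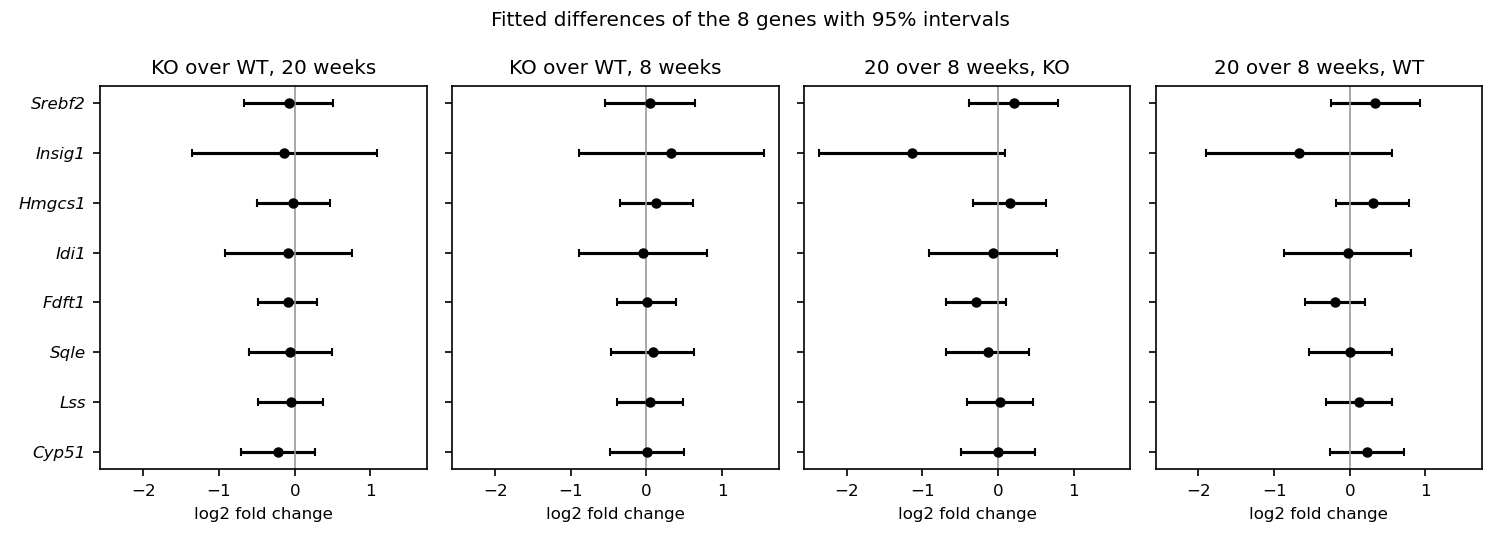
Fitted log2 fold changes of the 8 genes with 95% intervals from edgeR, for knockout-labelled (KO) over WT cells at 20 and at 8 weeks and for 20 over 8 weeks in each genotype. All intervals include 0, and those of Insig1 are the widest.

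The second comparison asked whether the genes differed between 20 and 8 weeks after transplant. In knockout-labelled cells edgeR called 0 of 8, against 0.0624% of all tested genes, with 0 of 8 under an unadjusted p of 0.05, against 8.33%. In WT cells it called 0 of 8, against 0.513%, with 0 of 8 under the unadjusted threshold, against 13.3%. Averaged over genotypes it called 0 of 8, against 2.9%. Only Insig1 was under the unadjusted threshold in that comparison, 1 of 8, against 18.6% of all tested genes. The other 7 estimates lay between -0.25 (Fdft1) and 0.27 (Srebf2), and their 95% intervals within 0.640-fold and 1.61-fold. In CPM, groups of 20 and 8 weeks overlapped for all 8 genes in knockout-labelled cells (8.32% of tested genes were higher and 8.12% lower without overlap), and for all but Insig1 in WT cells. Overlap depended on the scale. In TPM, Srebf2 and Hmgcs1 in knockout-labelled cells and Lss in WT cells were higher at 20 weeks without overlap, while Insig1 overlapped. The share of all tested genes without overlap in TPM was not counted. A fit to counts from the deposited TPM called 0 of 8 in either genotype.

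The test of whether the genotype difference itself changed with time called 0 of 8, against 0.097% of all tested genes, with 0 of 8 under an unadjusted p of 0.05, against 2.18%. All 8 interaction estimates were negative, from -0.47 for Insig1 to -0.04 for Idi1. Without both libraries that stood apart, 4 of the 8 were negative and their median was 0.00, against -0.14 with all libraries. Without knockout-labelled replicate 3 of 8 weeks alone, 7 were negative and the estimate for Insig1 was 0.85 (SE 0.43). Other tools called none of the 8 genes either. DESeq2 called 0 of 8 for genotype, against 0.222% of all tested genes at 20 weeks, 0.52% at 8 weeks and 0.527% averaged over times, and 0 of 8 for the interaction, against 0.243%. For time it called 0 of 8, against 1.04% in knockout-labelled cells, 3.45% in WT cells and 8.5% averaged over genotypes. With limma-voom 0 of 8 were called in each comparison, against 0.0485%, 0.187% and 0.215% of all tested genes for genotype in the same order, 0.0762% for the interaction, and 0.0624%, 0.471% and 3.53% for time in the same order.

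Some of the genes varied together from library to library. Over the 12 libraries, 6 of the 28 pairs of genes had a Pearson r over 0.5 on log2(CPM + 1), and the median r of all pairs was -0.18. Without both libraries that stood apart, 5 pairs were over 0.5 and the median was 0.03. Idi1 and Cyp51 were the closest pair, with r = 0.86 and rho = 0.73; among 14430 other tested genes Idi1 ranked 18th for Cyp51, and Cyp51 ranked 132nd for Idi1. Sqle went with both, at r = 0.75 with Idi1 and 0.71 with Cyp51. Of the other tested genes, 4.07% had a higher r with Idi1 than Sqle had, and 3.33% a higher r with Cyp51 than Sqle had. Hmgcs1 had r = 0.70 with Idi1 and 0.65 with Cyp51, but 0.22 with Sqle. Here 5.66% of genes had a higher r with Idi1 than Hmgcs1 had, and 8.62% a higher r with Hmgcs1 than Cyp51 had. Such r values were thus not rare, and the share of all gene pairs over 0.5 was not counted. These 4 genes were grouped after their values had been seen, and no test was made.

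In the shallowest library all 4 were at their lowest. Without both libraries that stood apart, r was 0.72 for Idi1 with Cyp51, 0.71 for Idi1 with Sqle and 0.67 for Cyp51 with Sqle. For Hmgcs1 it was 0.27 with Idi1, 0.29 with Cyp51 and -0.21 with Sqle. The points share library preparation and depth. Across the 12 libraries, r with the log10 of the estimated reads was 0.50 for Sqle, 0.42 for Idi1, 0.37 for Cyp51 and 0.15 for Hmgcs1, and -0.54 for Insig1; the part of depth was not tested.

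**Figure D3:**
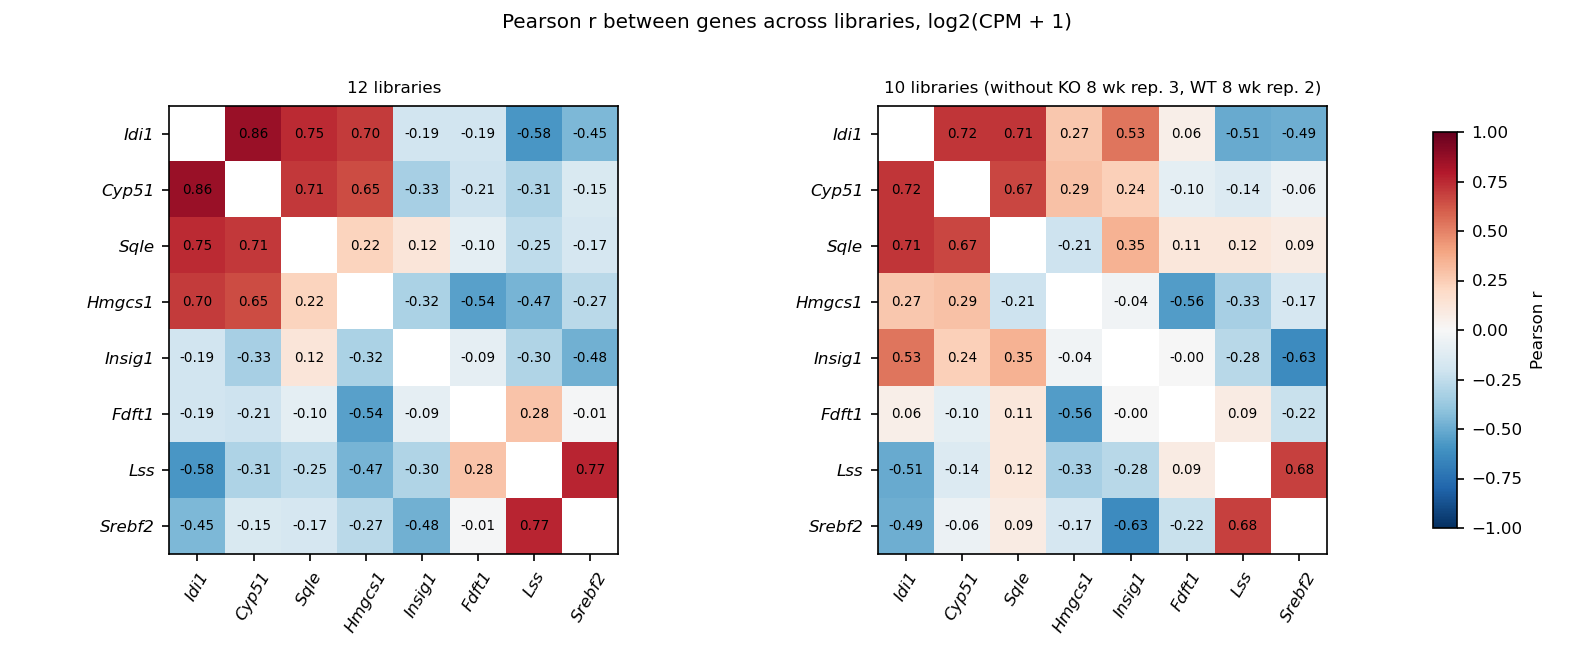
Pearson r between the 8 genes on log2(CPM + 1), over all 12 libraries on the left and over 10 libraries on the right, without knockout-labelled replicate 3 and WT replicate 2 of 8 weeks. Idi1, Cyp51 and Sqle stay above 0.6 in both panels, as do Srebf2 and Lss, while the Hmgcs1 pairs do not.

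Of the 7 other genes, Srebf2 had a positive r over the 12 libraries only with Lss. The pair had r = 0.77 and rho = 0.76, and r = 0.68 without both libraries; Lss ranked 75th of 14430 genes for Srebf2, and Srebf2 94th for Lss. With the mean of the standardised levels of the 6 enzymes, Srebf2 had r = -0.09 and rho = -0.08. In the opposite direction, Lss and Idi1 had the lowest r of all pairs, -0.58, and Fdft1 and Hmgcs1 had -0.54. Over the 12 libraries Insig1 had a positive r only with Sqle, at 0.12, and with the mean of the 6 enzymes its r was -0.37. Without both libraries its r was 0.24 with that mean, 0.53 with Idi1, 0.35 with Sqle and 0.24 with Cyp51. With Srebf2 that r was -0.63 and with Lss -0.28, but only -0.04 with Hmgcs1 and -0.004 with Fdft1.

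**Figure D4:**
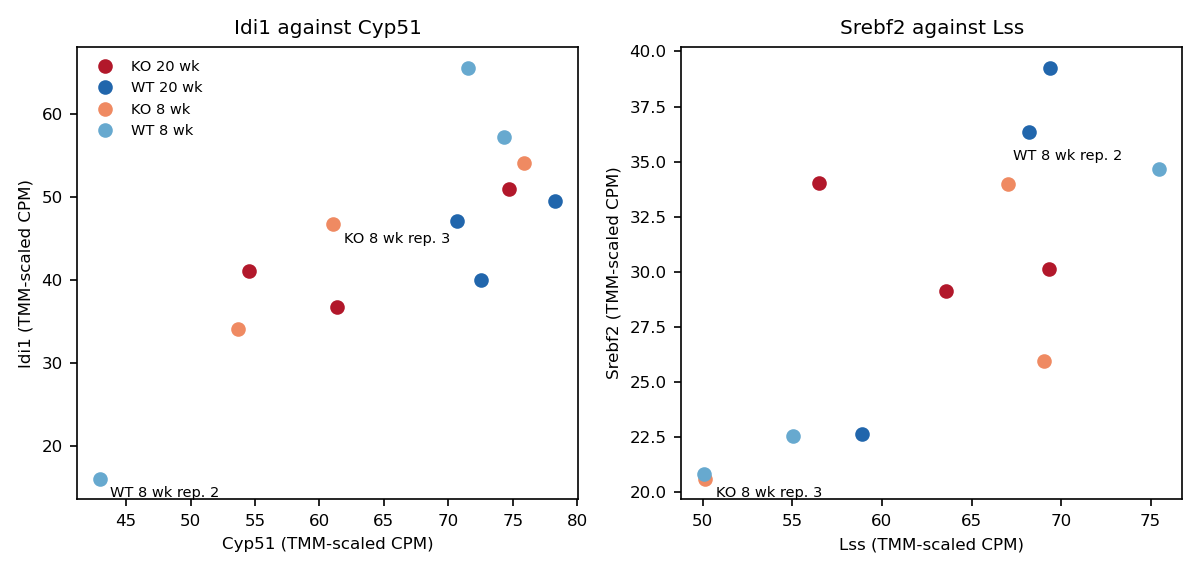
Level of Idi1 against Cyp51 (left) and of Srebf2 against Lss (right) in the 12 libraries, in TMM-scaled CPM, with the libraries that stood apart named; axes do not start at 0. Both pairs rise together over the 12 libraries, but not within every group. In knockout-labelled cells at 20 weeks, replicate 3 has the highest Srebf2 (34.0 CPM) and the lowest Lss (56.5 CPM). WT replicate 2 of 8 weeks is the lowest point on the left and the farthest right on the right.

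The genes also differed in which transcripts made up their sums. Srebf2, Hmgcs1, Fdft1 and Insig1 each have 1 transcript in the files, against 3 for Cyp51, 4 for Sqle, 5 for Idi1 and 8 for Lss. Protein-coding transcripts held a median of 90.7% of the estimated reads of Cyp51 over the libraries (85.8% to 95.1%), 76.7% for Lss (68.7% to 86.2%), 92.9% for Sqle and 99.9% for Idi1. In TPM, which favours short transcripts, the processed transcript Cyp51-202 held a median of 32.9% of Cyp51, and the retained-intron transcript Lss-205, of 425 bases, 32.4% of Lss. The TPM order of Cyp51 and Lss therefore includes transcripts that are not translated into the enzyme. The labels give the molecule as polyA RNA but the protocol has rRNA depletion and random hexamers, so how far these libraries hold unspliced RNA is not known. The sum of protein-coding transcripts alone called 0 of the 8 genes in every comparison.

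Around the 8 genes, 6 lists of the pathway were read, with 84 genes of which 78 were tested. edgeR called none of the 78 for genotype, interaction or time within a genotype. Under an unadjusted p of 0.05 it had 3 at 20 weeks (3.85%, against 2.08% of all tested genes), 2 at 8 weeks (2.56%, against 3.62%) and 3 averaged over times (3.85%, against 3.71%) for genotype, and 2 for the interaction (2.56%, against 2.18%). For time it had 4 in knockout-labelled cells (5.13%, against 8.33%) and 8 in WT cells (10.3%, against 13.3%). For 20 over 8 weeks averaged over genotypes it called 2 of 78, Fdps and Acss2, against 2.9% of all tested genes, and 13 were under the unadjusted threshold (16.7%, against 18.6%). Of the 17 other sterol synthesis enzymes, 1 fell and 0 rose, and their median log2 fold change was -0.13, beside 0.02 over all tested genes. Of 15 tested genes of sterol uptake and other SREBP2 targets, 1 rose and 0 fell, with a median of 0.00. Of 11 genes of SREBP processing and 11 of the isoprenoid branches, 0 were called, with medians of -0.01 in both lists. Neither were any of 11 tested genes of LXR and sterol efflux (median 0.05) or of 13 tested SREBP1 fatty acid genes (median -0.21).

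Fdps, farnesyl diphosphate synthase, which acts between Idi1 and Fdft1, had 64.3, 53.6 and 42.2 CPM in knockout-labelled and 52.2, 49.7 and 54.0 CPM in WT cells at 20 weeks. At 8 weeks it had 93.6, 78.9 and 81.1 CPM in knockout-labelled and 81.2, 61.6 and 70.8 CPM in WT cells. The 20-week libraries lay below the 8-week libraries in knockout-labelled cells and in WT cells, as in 3.53% of all tested genes. Averaged over genotypes it fell by 0.56 on the log2 scale (SE 0.13, adjusted p = 0.0439 by edgeR). The call was lost in 13 of 22 alternatives, with adjusted p up to 0.118, while the value stayed between -0.65 and -0.50. Leaving out 1 library lost the call in 9 of 12 cases: each of the 6 libraries of 20 weeks, knockout-labelled replicates 1 and 2 of 8 weeks, and WT replicate 1 of 8 weeks.

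Acss2, which makes acetyl-CoA from acetate, had 15.8, 23.6 and 17.1 CPM in knockout-labelled and 21.0, 12.3 and 13.8 CPM in WT cells at 20 weeks. In 8-week cells the levels were 8.97, 10.3 and 8.64 CPM in knockout-labelled and 6.81, 7.81 and 6.68 CPM in WT cells. Again no 20-week library overlapped the 8-week libraries of its genotype, here on the higher side, as in 2.65% of all tested genes. With both genotypes averaged, Acss2 rose by 1.08 on the log2 scale (SE 0.18, edgeR adjusted p = 0.0119), and it was called in all 22 alternatives, with values of 0.81 to 1.56. Among cell cycle genes 4 of 20 (Mcm5, Pcna, Mcm7 and Mcm3) fell at 20 weeks and 16 did not pass, against 2.9% of all tested genes called in either direction, and the summed level of the 20 was 4351 to 5097 CPM at 20 weeks, against 5173 to 9496 CPM at 8 weeks. Of the tested cell type markers, 2 of 13 of ILC2s (Il13 and Areg) fell as well. So did 1 of 9 of B and plasma cells (Cd79b) and 1 of 6 of NK cells and ILC1s (Gzmb). Under the unadjusted threshold 3 ILC2 markers were higher and 2 lower, and the median of that list was 0.08 on the log2 scale. Of the B and plasma cell markers 2 were higher and 3 lower (median -0.77), and of the NK and ILC1 markers 0 and 2 (median -0.86). The part of the cell cycle and marker genes in the differences of Fdps and Acss2 was not tested.

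No other gene of the 6 lists passed the test by edgeR. For knockout-labelled over WT cells averaged over times, and for 20 over 8 weeks averaged over genotypes, the log2 fold changes were -0.14 (SE 0.24) and 0.12 (SE 0.24) for the escort Scap. In the same order, Insig2 had -0.11 (SE 0.15) and -0.06 (SE 0.15), and Srebf1 had 0.01 (SE 0.37) and 0.35 (SE 0.37). The sterol exporter Abcg1 had 0.22 (SE 0.30) and -0.66 (SE 0.30, adjusted p = 0.261 by edgeR), and Abca1, another exporter, -0.10 (SE 0.45) and 0.03 (SE 0.45). Among the most abundant genes of the lists without a call were Faf2, which takes part in protein degradation at the endoplasmic reticulum, with 0.06 (SE 0.14) for genotype and -0.20 (SE 0.14) for time, and Lpcat3, a phospholipid remodelling enzyme, with 0.06 (SE 0.18) and 0.09 (SE 0.18). The fatty acid elongases Elovl5 and Elovl1 had -0.03 (SE 0.16) and -0.14 (SE 0.17) for genotype, and 0.35 (SE 0.16) and -0.47 (SE 0.17) for time. Rabggta, which attaches isoprenoid anchors to Rab proteins, had 0.17 (SE 0.12) and -0.01 (SE 0.12), and Dhdds, of dolichol synthesis, had 0.15 (SE 0.15) and -0.03 (SE 0.15).

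**Figure D5:**
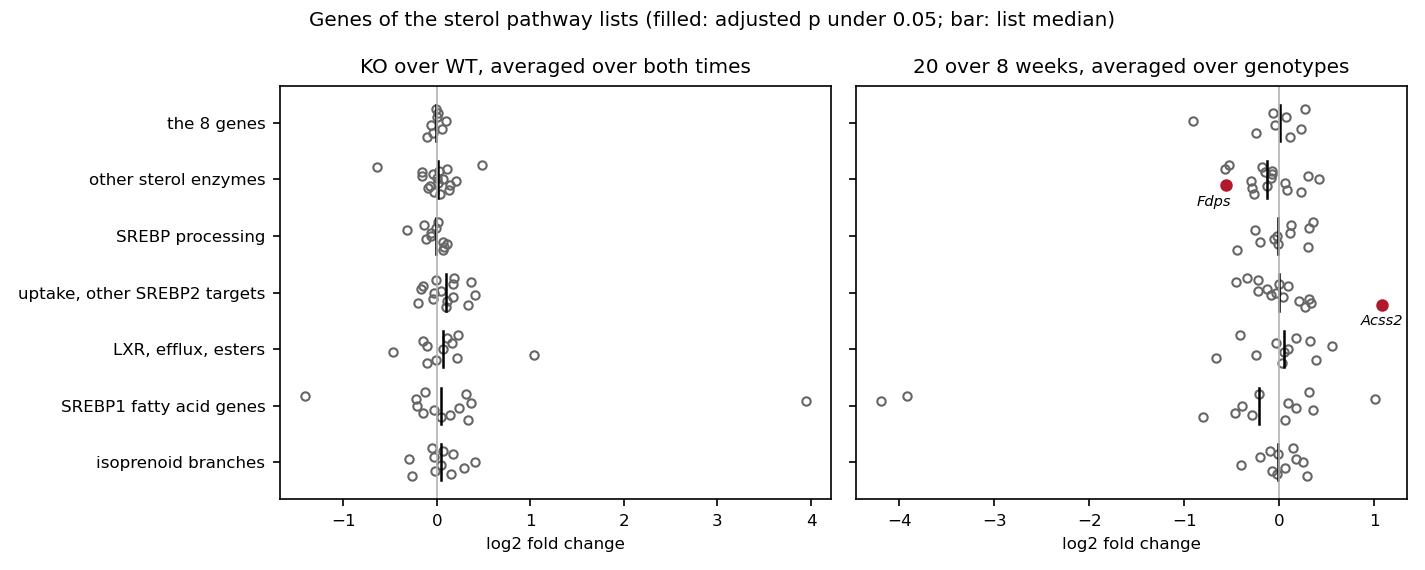
Log2 fold changes of the 8 genes and of the tested genes of 6 pathway lists, for knockout-labelled (KO) over WT cells averaged over both times and for 20 over 8 weeks averaged over both genotypes. Each circle is a gene and each bar a list median; Fdps and Acss2, filled, are the only genes under an adjusted p of 0.05.

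The enzyme list held 1 gene with groups that did not overlap at either time, Sc5d, sterol C5-desaturase, which was singled out after its values had been seen. It had 160.5, 141.8 and 143 CPM in knockout-labelled and 194.7, 226 and 205.9 CPM in WT cells at 20 weeks. At 8 weeks it had 128.9, 139.5 and 188.3 CPM in knockout-labelled and 239.3, 295.9 and 253.7 CPM in WT cells. Every knockout-labelled library thus lay below every WT library, and 0.374% of all tested genes were lower without overlap at both times (0.312% were higher). With both times averaged, Sc5d differed by -0.64 on the log2 scale (SE 0.13, edgeR adjusted p = 0.101), which did not pass. Without knockout-labelled replicate 3 of 8 weeks the value was -0.72 (SE 0.11) and passed, with an edgeR adjusted p of 0.0162. Without both libraries that stood apart it was -0.67 (SE 0.09), with an edgeR adjusted p of 0.00885. DESeq2 called it with all libraries, with an adjusted p of 0.000425, and limma-voom did not. Of 23 alternatives these 3 called it; leaving out any other single library did not, with edgeR adjusted p up to 0.388. Sc5d lies at chr9:42251595-42264256, 1.79 Mb from Thy1, the gene of the CD90 marker that differs between the donors, and none of the 8 genes is on that chromosome. Estimated reads of Thy1 were 344 to 1076 in knockout-labelled and 29.8 to 99.9 in WT libraries. Rag1 genotype and the donor marker differ together in these libraries, so their parts in the Sc5d difference cannot be told apart.

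The genes most like the mean of the standardised levels of the 8 were ranked by Pearson r over the 12 libraries. The 10 highest were Fbxl17 (r = 0.87), Phxr4 (0.86), Meaf6 (0.84), Tedc2, Cep19, Cd3eap, Zfp763 and 1700022I11Rik (0.83 each), Nek1 and Crbn (0.82 each). None of them is in the pathway lists. The nearest genes of those lists were Pdss1 of the isoprenoid branches, which ranked 298th of 14423 with r = 0.62, and the sterol enzyme Hsd17b7, which ranked 464th with r = 0.59. Without both libraries that stood apart, r was 0.30 for Pdss1 and 0.42 for Hsd17b7, and between 0.69 and 0.94 for the 10 highest. Of the 17 other sterol enzymes, 2 had an r over 0.5, and their median was 0.22, against a median of 0.02 over all genes, of which 7.38% had an r over 0.5.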

How the data were processed

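Per the file headers, the authors ran sailfish 0.6.3 (k-mers of 20 bases, Ensembl R76) on each library and deposited an expected count (estimated reads) and a TPM per transcript. Named in the submitters' processing notes, without a role, are featureCounts 1.4.5, Subread, STAR 2.0.4b and bcl2fastq. Per the labels' protocols, ribosomal RNA was removed and priming was random, with no word on strand; the molecule is labelled polyA RNA. Thread number in the headers was 8 in 6 libraries and 24 in the other 6.

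Of 86127 transcripts, 83739 (97.2%) matched GENCODE M21 (GRCm38) by identifier and were summed per gene; unmatched transcripts held 1.01% to 1.54% of a library's reads. Rounded counts were filtered with filterByExpr, scaled by TMM and fitted on 4 group means with the quasi-likelihood test of edgeR 4.0.16 (R 4.3.3), adjusted by Benjamini-Hochberg over 14431 genes, with a threshold of 0.05; the script was tested on simulated data. Alternatives included DESeq2 1.42.0, limma 3.58.1, other filters and scalings, thread number, a replicate block and leaving out each library. Replicate libraries differed beyond sampling noise (chi-square per degree of freedom 41.4 to 598.7 over 12 pairs). The members and lists were chosen with earlier results of these data known. Genes outside the 8 are named by rule: those called in any comparison, or else the 2 of a list with the highest mean TPM, with Scap, Insig2, Srebf1, Abca1, Abcg1 and the 10 most similar genes; some genes of that rule are not reported here.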

Additional observations from a re-analysis of the deposited data

How the results depend on the processing

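The count of the 8 genes called was 0 in each of the 7 comparisons and stayed 0 in every alternative run, 22 to 25 for each comparison, leave-one-out fits included (lowest 0, highest 0). Separate fits covered the 4 comparisons between single groups, and the 8-thread libraries alone only genotype at 8 weeks and time in WT cells. Of 1312 alternative log2 fold changes of the 8 genes, 0 were called and 179 had the other sign than the reported value, in 43 of 56 results; none of those results was called. The replicate block was fitted for the 4 comparisons that involve genotype, where it called 0 of the 8; time differs between blocks, so it could not be fitted for the others. Libraries of the same time and replicate number had deviations that correlated at 0.07 to 0.31, over 0.1 in 4 of 6 pairs. Those of the same time and different numbers correlated at -0.25 to 0.08. The labels do not say whether a number marks a shared host, and the main fit does not pair the libraries. Acss2 was called in every alternative of the averaged time comparison, while Fdps lost its call in 13 of 22; the cause was not tested. Insig1 depended on 1 library: without knockout-labelled replicate 3 of 8 weeks its averaged time difference was -0.25. Leaving it out also gave a genotype difference of -0.55 averaged over times, against 0.10 with all libraries. Idi1 rested on as few as 163 estimated reads in the shallowest library.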

Other observations

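DESeq2 called more genes than edgeR over all tested genes (8.5%, against 2.9%, for averaged time), and likewise in the pathway lists, where its calls were named after their values had been seen. They were Sc5d for genotype at 8 weeks and averaged over times, Acss2 and Scd1 for time in knockout-labelled cells, and Acss2, Me1 and Pmvk for time in WT cells. Averaged over genotypes, it called Acss2, Fdps, Me1, Pmvk and Rnf145. Pmvk, phosphomevalonate kinase, had a log2 fold change of -0.57 for 20 over 8 weeks (SE 0.14, adjusted p = 0.0519 by edgeR), and limma-voom called it. Split by the thread number in the file headers, the r of Insig1 with the mean of the 6 enzymes was 0.92 over the 6 libraries of 24 threads and -0.72 over the 6 of 8 threads, which hold both libraries that stood apart. For the log10 of the estimated reads, r with that mean was -0.12 over those of 24 threads and 0.96 over those of 8. Thread number is tied to group, since every knockout-labelled library of 20 weeks has 24 threads, and its part was not tested.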
